A study of Homo sapiens with 16 samples.

Results

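HCT116 cells in which MYBL1 and MYBL2 were knocked down together were compared with HCT116 cells given a control siRNA. HCT116 is a human colorectal carcinoma line. A small interfering RNA (siRNA) is a short duplex that leads to loss of transcripts it matches. The double knockdown (siMYBL1-siMYBL2) and the control (siCtrl, an siRNA without a target) had 2 libraries each, and RNA was taken after 48 h. Both groups were chosen by their labels and read through the authors' table of that comparison, which lists 12885 of the 19315 genes listed in any of the 6 tables of the series. The series holds 16 libraries in 8 groups of 2, called biological replicates in its design text. The other groups used here were HCT116 with siMYBL1 alone, HCT116 with siMYBL2 alone, and the double knockdown and siCtrl of U2OS, a human osteosarcoma line, all at 48 h. Every group carried an siRNA, the controls included. The knockdown was transient and left part of each target RNA. The siRNA sequences were not used here.

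MYBL1 encodes A-MYB and MYBL2 encodes B-MYB, both relatives of the transcription factor c-MYB, the product of MYB. B-MYB joins the MuvB complex, and together with FOXM1 this assembly turns on late cell cycle genes before and during mitosis. The same MuvB core, bound to E2F4 and p107 or p130, forms the repressor DREAM, which holds cell cycle genes off in resting cells. MuvB reaches promoters through the cell cycle genes homology region (CHR), while CCAAT boxes recruit the activator NF-Y and E2F sites lie in many S phase promoters. The inhibitor CDKN1A, with other genes of the damage response, stops the cycle and favours DREAM.

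The deposited values are fold changes with their standard errors, and values of single libraries are not in the tables. Below, a level in the double knockdown is given as a percentage of siCtrl or as a fold of siCtrl, with a 95% interval, computed from the authors' deposited log2 fold change and standard error. Mean normalized counts of each group were computed from the deposited base mean and fold change, as if the fold were the ratio of the means of 2 and 2 libraries. A gene was called when its adjusted p (Benjamini-Hochberg over all 12885 genes, on the authors' Wald test) was under 0.05. Each p-value tests whether the log2 fold change differs from 0, given the standard error that the authors' model estimated with 2 libraries a group. How far that error follows the spread between those libraries cannot be seen without values per library. The median standard error was 0.209 on the log2 scale over all genes and 0.198 over the 11401 genes whose base mean reached 100. The lowest base mean listed was 40.4, so rarer transcripts are not described.

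MYBL2 (chr20:43667019-43716495 on hg38) fell to 9.92% (95% interval 7.89% to 12.5%) of siCtrl, with an adjusted p of 1.1e-82. Its mean normalized count went from 2680.2 to 266. MYBL1 fell to 27.8% (95% interval 16.8% to 45.9%), from 284 to 78.8 counts, with an adjusted p of 4.2e-05. MYB, which was not targeted, stood at 73.9% (95% interval 48.4% to 113%) with an adjusted p of 0.5. MYBL2 stood at 9.05% with siMYBL2 alone and 97.6% with siMYBL1 alone. MYBL1 stood at 31.4% with siMYBL1 alone and 75.6% with siMYBL2 alone, the latter with an adjusted p of 0.85.

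The line was checked against 11 markers of colorectal epithelium, of which 6 were listed. EPCAM, KRT8, KRT18 and CDX2 were not called. CDH1 (E-cadherin) rose 1.5-fold with an adjusted p of 0.03, and KRT19 rose 1.41-fold with an adjusted p of 0.015. CDX1, VIL1, CDH17, GPA33 and LGALS4, markers of more mature colon epithelium, were not listed. Of 20 mesenchymal, 16 blood cell and 10 endothelial markers, 6, 2 and 1 were listed and none was called.

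In all, 531 genes (4.12% of those tested) were called lower and 364 (2.82%) were called higher. The lower genes had a median of 57.4% of siCtrl, and 170 of them stood at or under 50% of control. The higher genes had a median rise of 1.79-fold, and 122 of them at least doubled. The median log2 fold change of all listed genes was -0.02. Protein-coding genes made up 867 of the calls, and 24 of 906 long noncoding RNAs were called, 20 of them higher. Among genes whose base mean reached 100, many of the most depleted have roles in mitosis. After MYBL2 came PIF1, a DNA helicase, at 11.2%, then CKAP2L at 15.3%, CDCA3 at 15.6%, CENPE at 15.7% and KIF20A at 15.9%. FAM72D stood at 15.5%, but the FAM72 genes are near-identical copies whose reads could be split between them, so that value is uncertain. At the other end stood the carboxypeptidase CPA4 at 5.47-fold, the receptor PTAFR at 5.45-fold, smooth muscle actin ACTA2 at 5.0-fold, GALNT5 at 3.90-fold and the antiproliferative BTG2 at 3.86-fold.

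Transcripts that held 1 of 2 short words in their 3′ untranslated regions (UTRs) were called lower in a larger share of cases. The words were taken from the U2OS single knockdowns as the 7-base words whose genes had the most lowered mean Wald statistic beside genes without the word, relative to the standard error of that difference. They were GAACTTA with siMYBL1 and CCTTACA with siMYBL2. Both were then read in the HCT116 double knockdown, a description added after the data were seen. Either word lay in the longest annotated 3′ UTR of 1937 of 11747 genes (16.5%). It lay in 139 of 524 genes called lower (26.5%) and in 47 of 336 called higher (14%). Of genes with either word 7.18% were called lower, against 3.92% of genes without. In the 6 mitotic lists described next the words were rare, being in 8 of 109 members called lower (7.34%), and 101 of the 140 members without either word were called lower (72.1%). Outside all gene lists either word lay in 122 of 344 genes called lower (35.5%). These sets differed in 3′ UTR length, and longer UTRs have more room for a word. The median length was 821 bases in mitotic-list members called lower and 1724 in genes called lower outside the lists. It was 1394 over all 11747 genes, and the shares were not adjusted for length. Among the genes named here that fell, PIF1, LMNB1, NCAPG, TAGLN2, SQLE and FARP1 held the first word, CENPE, DAP, LAMP1, ABHD2 and XRCC3 held the second, and SLC7A11 held both. Among those that rose, GALNT5, DUSP4, LTBP2, CDK6 and PGPEP1 held the first word, and MACC1, SLC2A1 and SMAD3 held the second. The part of these words in the result was not tested.

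Genes of mitosis fell together. The 6 mitotic lists (entry and kinases, kinetochore, spindle, cytokinesis, chromosome structure, anaphase-promoting complex) held 153 listed genes, of which 109 were called lower and 0 higher. Their median was 48.2% of siCtrl, beside 98.8% for all listed genes, and 81 of them stood at or under 50%. The share called lower was 71.2%, beside the 4.12% of all genes. In bulk RNA, fewer cells in G2 and mitosis and less RNA per such cell cannot be told apart.

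Promoters of some of the strongest mitotic genes are shown, chosen in part by whether they hold a CHR. Each line gives 250 bases before to 50 after the RefSeq start, 5′ to 3′ on the gene's strand, from RefSeq on GRCh38.p14. Capitals mark the CHR (TTTGAA or TTCGAA) and the CCAAT box (CCAAT) on either strand, so that TTCAAA and ATTGG are reverse matches. The first 4 genes were taken from the mitotic genes with the smallest adjusted p because they have a CHR near the start. Near means from 100 bases before to 50 after it. CENPF met this rule too and is not shown, and TOP2A did not, its CHR matches beginning at -194 and -151. The last 2, CENPE and KIF20A, are the lowest mitotic-list genes without either searched form of the CHR near the start. Other forms of the CHR were not searched.
MKI67, chr10:128126374-128126673, minus strand: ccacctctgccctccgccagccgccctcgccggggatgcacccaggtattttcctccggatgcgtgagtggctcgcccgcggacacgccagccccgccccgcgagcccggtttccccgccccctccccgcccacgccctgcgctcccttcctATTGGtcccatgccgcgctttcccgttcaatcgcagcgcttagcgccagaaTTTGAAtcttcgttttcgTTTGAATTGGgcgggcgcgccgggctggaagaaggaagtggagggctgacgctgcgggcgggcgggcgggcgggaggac
CKAP2L, chr2:112764560-112764859, minus strand: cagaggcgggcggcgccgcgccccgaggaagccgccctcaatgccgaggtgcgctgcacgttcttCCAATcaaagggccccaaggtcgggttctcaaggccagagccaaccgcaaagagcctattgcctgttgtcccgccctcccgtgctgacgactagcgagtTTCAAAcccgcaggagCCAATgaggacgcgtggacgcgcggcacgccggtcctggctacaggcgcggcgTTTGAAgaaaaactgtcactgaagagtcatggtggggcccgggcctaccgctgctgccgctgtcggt
KIFC1, chr6:33391573-33391872, plus strand: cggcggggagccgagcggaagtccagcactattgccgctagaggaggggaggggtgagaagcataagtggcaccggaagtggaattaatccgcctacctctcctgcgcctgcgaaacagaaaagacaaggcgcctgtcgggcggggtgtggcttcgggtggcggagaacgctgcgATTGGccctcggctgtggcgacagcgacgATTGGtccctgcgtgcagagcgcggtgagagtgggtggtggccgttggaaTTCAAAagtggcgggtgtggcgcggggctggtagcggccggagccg
DLGAP5, chr14:55191536-55191835, minus strand: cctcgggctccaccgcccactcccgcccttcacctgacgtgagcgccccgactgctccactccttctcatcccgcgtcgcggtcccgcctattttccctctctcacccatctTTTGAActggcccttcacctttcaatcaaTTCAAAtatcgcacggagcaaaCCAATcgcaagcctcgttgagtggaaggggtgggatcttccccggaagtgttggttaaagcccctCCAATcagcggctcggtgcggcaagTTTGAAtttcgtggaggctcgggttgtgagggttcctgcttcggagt
CENPE, chr4:103198294-103198593, minus strand: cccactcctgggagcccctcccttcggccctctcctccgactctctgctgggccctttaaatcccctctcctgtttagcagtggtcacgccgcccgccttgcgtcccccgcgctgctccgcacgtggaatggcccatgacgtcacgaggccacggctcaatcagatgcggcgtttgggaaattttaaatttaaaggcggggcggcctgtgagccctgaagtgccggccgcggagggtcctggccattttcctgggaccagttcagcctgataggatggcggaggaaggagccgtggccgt
KIF20A, chr5:138178862-138179161, plus strand: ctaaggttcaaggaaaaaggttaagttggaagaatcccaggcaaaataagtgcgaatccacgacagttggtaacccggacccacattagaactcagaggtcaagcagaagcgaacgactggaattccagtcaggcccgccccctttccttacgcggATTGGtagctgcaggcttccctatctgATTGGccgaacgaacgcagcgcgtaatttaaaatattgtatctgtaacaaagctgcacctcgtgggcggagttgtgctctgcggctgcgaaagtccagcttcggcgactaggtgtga

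In MKI67 the CHR copies begin at -47 and -29 from the start, and the second overlaps by a base the reverse CCAAT box that begins at -24. In KIFC1 the CHR begins at 4 and the CCAAT boxes at -75 and -46. DLGAP5 has 3 CHR matches, at -138, -109 and 3, and CKAP2L has 2, at -86 and -17. KIF20A has CCAAT boxes at -94 and -67, and CENPE has neither motif in this window. Of 12396 listed genes with a symbol, 9965 matched a RefSeq promoter. A CHR was found in 141 of 445 genes called lower (31.7%), in 19 of 260 called higher (7.31%) and in 10.6% of all listed genes. Among genes lower to 50% of control or less the share was 50% (69 of 138). Among members of the mitotic lists called lower it was 68.9% (62 of 90), and among members not called it was 26.8% (11 of 41). Of all 27305 RefSeq promoters 16.6% held a CHR. In the shorter window of 100 bases before to 50 after the start, the share was 21.6% in genes called lower, 1.54% in genes called higher and 4.11% in all listed genes. The 63 mitotic-list genes with a CHR in that shorter window had a median of 38.0% of control and 56 were called lower. The 68 without one had a median of 67.1%, and 34 were called lower. A match is a description of letters and not evidence of a bound site.

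The CCAAT box lay in 52.4% of the promoters of genes called lower, 30.4% of those called higher and 36.9% of all listed genes, beside 35.7% of all RefSeq promoters. E2F-type motifs, searched as TTCCCGC, also with the letters TTCGCGC and as a last form with the letters TTGGCGC, lay in 32.4% of genes called lower, 13.1% of genes called higher and 18.3% of all listed genes, beside 11.2% of all RefSeq promoters. In the replication list E2F-type motifs lay in 27 of 35 promoters (77.1%) and a CHR in 1 (2.86%). All motifs were read on both strands, and matches of different motifs may overlap.

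**Figure D1:**
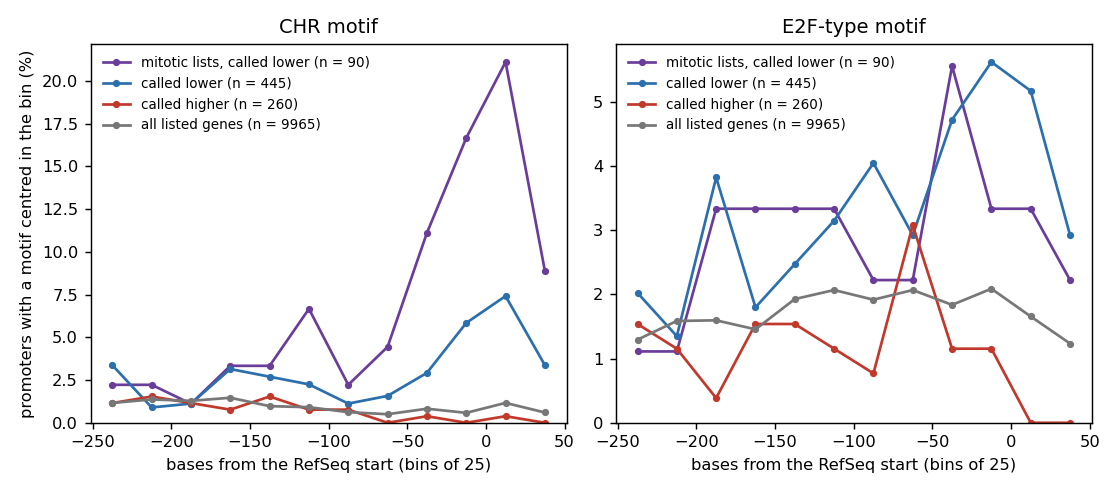
Share of promoters with a CHR (left) or E2F-type (right) motif centred in each bin of 25 bases, by distance from the RefSeq start (horizontal axis), for mitotic-list genes called lower, all genes called lower, genes called higher and all listed genes. The CHR share of mitotic-list genes called lower peaks at 21.1% in the bin from 0 to 25, where that of all listed genes is 1.16%, and the vertical scales of the panels differ.

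Among genes of mitotic entry and mitotic kinases 23 of 26 were called lower and the median was 35.9% of control. PLK1, the kinase that drives entry and spindle assembly, fell to 21.9% (95% interval 16.8% to 28.7%), from 2747 to 602 counts, with an adjusted p of 1.8e-25. AURKA, the centrosome kinase, fell to 25.7% and its activator TPX2 to 32.8%. AURKB, the kinase of the chromosomal passenger complex, fell to 25.8% (95% interval 19.6% to 34.1%). CCNF, an F-box cyclin, fell to 34.1%. The 3 members not called were CDC25A at 83.5%, the mitotic inhibitor kinase WEE1 at 72.9% and MASTL at 67.6%, with adjusted p of 0.47, 0.071 and 0.11. CCNB1 (cyclin B1) fell to 30.3% (95% interval 16.2% to 56.6%) with an adjusted p of 0.0052, and its standard error was 3.12 times that of genes of like base mean.

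Kinesins and spindle proteins fell in 29 of 35 cases, with a median of 34.6%. KIF20A, a kinesin of the central spindle, fell to 15.9% (95% interval 11.7% to 21.6%), from 1906 to 304 counts. DLGAP5, which stabilises kinetochore microtubules, fell to 16.6% (95% interval 12.1% to 22.7%). CKAP2L fell to 15.3%, PSRC1 to 19.4% and the minus-end motor KIFC1 to 23.8%. Among members not called were the spindle pole protein NUMA1 at 1.08-fold and the augmin subunits HAUS2 at 68.7% and HAUS6 at 79.5%.

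Among kinetochore, centromere and checkpoint genes 28 of 44 were called lower, with a median of 51.5%. The kinetochore motor CENPE fell to 15.7% (95% interval 11.3% to 21.9%), from 1029 to 162 counts. CENPF fell to 19.3% (95% interval 14.9% to 24.9%), from 4758 to 918 counts. CENPA, the centromeric histone H3, fell to 17.2% (95% interval 11.6% to 25.5%), and HJURP, its chaperone, fell to 23.8%. CDCA8 (borealin), a passenger complex subunit, fell to 31.1%. In contrast CENPN stood at 65.4%, NSL1 at 80.2% and ZWINT at 80.5%, and none of these was called.

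Cytokinesis genes were lower in 9 of 13 cases, with a median of 40.5%. RACGAP1, of the centralspindlin complex, fell to 31.9% (95% interval 25.2% to 40.3%), and ECT2, the exchange factor it recruits, fell to 40.5% (95% interval 32.4% to 50.7%). DEPDC1B fell to 22.5%, ARHGAP11A to 38.0% and the ring scaffold ANLN to 39.9%. RHOA, the GTPase of the ring, stood at 81.3%, SEPTIN7 at 92.2% and SEPTIN9 at 1.14-fold, with no call.

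Chromosome structure and cohesion genes were lower in 15 of 19 cases, with a median of 55.9%. MKI67, the proliferation marker that coats mitotic chromosomes, fell to 19.7% (95% interval 15.4% to 25.3%), from 13213 to 2608 counts, with an adjusted p of 6.8e-34. TOP2A, the topoisomerase of dividing cells, fell to 18.3% (95% interval 14.5% to 23.2%), from 4375 to 803 counts, whereas its relative TOP2B stood at 1.02-fold (95% interval 0.833 to 1.26). The condensin subunits NCAPD2 and NCAPG fell to 38.0% and 29.7%. PTTG1 (securin) fell to 21.5%. The cohesin subunits SMC3 at 78.3% and STAG2 at 81.5% were not called.

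The anaphase-promoting complex was split in this comparison. Its mitotic partners fell: UBE2C, its ubiquitin-conjugating enzyme, to 22.0% (95% interval 16.6% to 29.1%), UBE2S to 33.2%, the activator CDC20 to 33.8% (95% interval 25.3% to 45.2%) and the inhibitor FBXO5 (EMI1) to 37.0%. Of the core subunits CDC27 fell to 68.0% with an adjusted p of 0.0034. ANAPC1 stood at 91.5%, ANAPC5 at 99.0% and ANAPC7 at 92.3%, none of them called. The whole list had 5 of 16 members lower and a median of 85.1%.

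**Figure D2:**
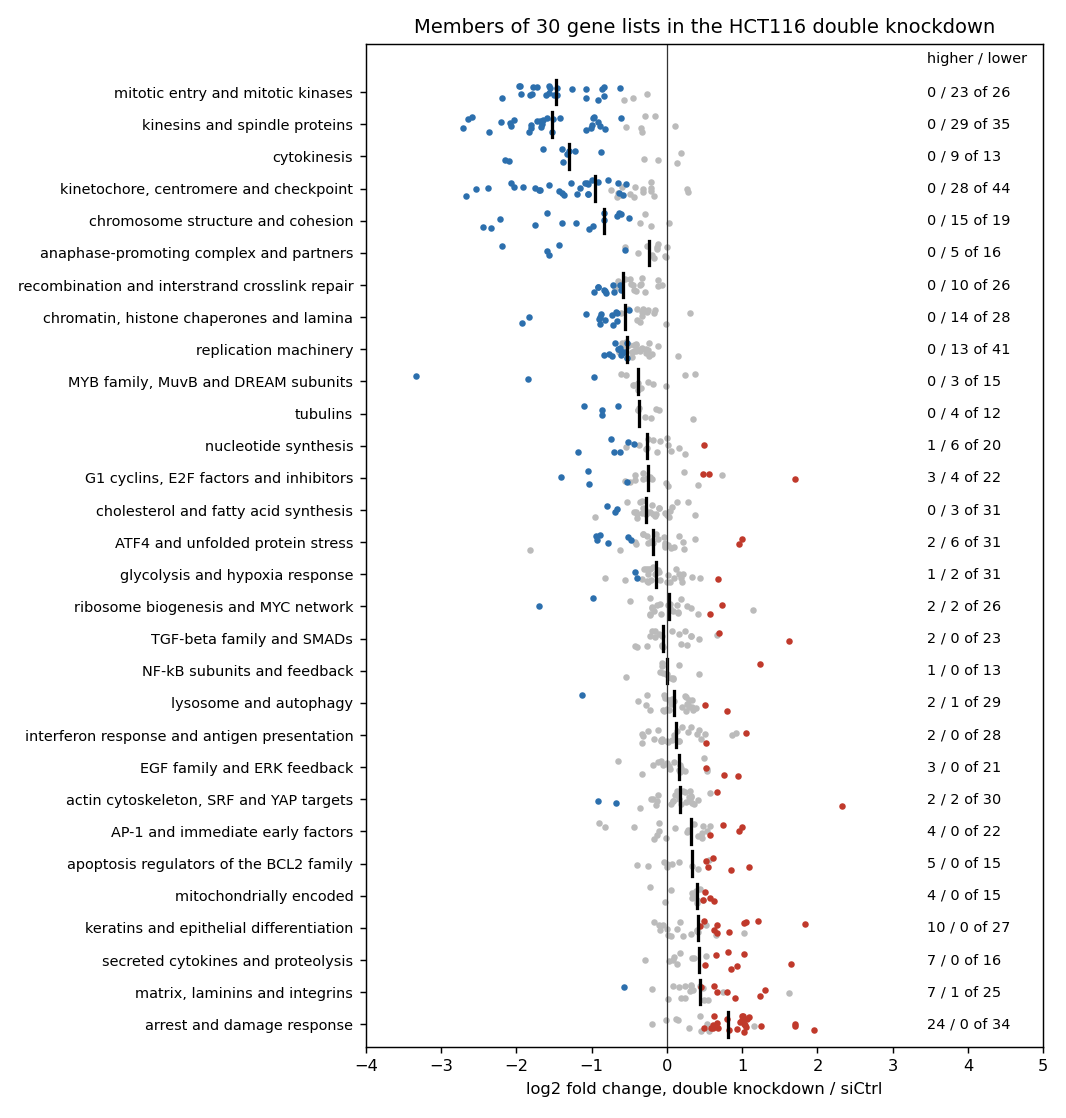
Log2 fold change of the double knockdown over siCtrl (horizontal axis) for each listed member of 30 gene lists (rows), in blue where called lower, red where called higher and grey where not called; black bars are medians, points are spread vertically for display, and numbers at the right give members higher and lower of those listed. The mitotic lists at the top lie left of 0, with medians down to -1.53, and the arrest and damage response genes at the bottom lie right, with a median of 0.82.

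The S phase lists had medians nearer to control. In the replication, nucleotide synthesis and repair lists 33.3% of members were called lower and 1.15% higher, beside 4.12% and 2.82% of all genes. These lists held 87 listed genes, with 29 called lower, 1 called higher and a median of 71.8%. Of these, 1 stood at or under 50% of control, RRM2, the regulated subunit of ribonucleotide reductase, at 44.1% (95% interval 36.0% to 54.0%), from 6981 to 3079 counts. In the replication machinery 13 of 41 were lower and the median was 69.5%. The helicase subunits MCM3 and MCM5 fell to 65.6% and 63.9%, the loading factor CDC6 to 65.2%, MCM10 to 58.8% and GINS2 to 55.8% (95% interval 43.2% to 72.1%). PCNA at 82.3%, FEN1 at 77.8% and RPA1 at 84.2% were not called.

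For nucleotide synthesis 6 of 20 were lower and 1 higher. Thymidine kinase TK1 fell to 61.4%, DTYMK to 59.9% and GMPS to 64.7%. The subunit RRM2B, which replaces RRM2 after DNA damage, rose 1.41-fold (95% interval 1.12 to 1.76) with an adjusted p of 0.045. In the recombination and crosslink repair list 10 of 26 were lower (38.5%). RAD54L fell to 51.1%, FANCI to 53.2% (95% interval 40.9% to 69.3%), FANCA to 60.9%, UBE2T to 56.2% and XRCC3 to 56.7%.

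The regulators of the cycle moved in both directions. In the MYB, MuvB and DREAM list FOXM1 was the only member called besides the 2 targets, at 51.1% (95% interval 40.4% to 64.8%) with an adjusted p of 2.6e-06. RBBP4 stood at 87.6%, E2F4 at 84.2% and TFDP1 at 76.4%, none of them called. Among G1 cyclins, E2F factors and inhibitors, 3 of 22 rose (13.6%) and 4 fell (18.2%), beside 2.82% and 4.12% of all genes. CDKN1A (p21) rose 3.24-fold (95% interval 2.58 to 4.08), from 4535 to 14709 counts. CCND1 rose 1.39-fold and CDK6 rose 1.48-fold. The repressive E2F8 fell to 48.6%, E2F3 to 69.5%, and the inhibitors CDKN2C and CDKN2D to 37.8% and 48.5%. CDKN2D and E2F3 were close to the threshold, with adjusted p of 0.049 and 0.045.

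Chromatin, histone chaperone and lamina genes were lower in 14 of 28 cases, beside 4.12% of all genes, with a median of 67.7%. HMGB2, a DNA-bending protein that is abundant in dividing cells, fell to 28.1% (95% interval 22.7% to 34.7%), from 9063 to 2544 counts, while its relative HMGB1 stood at 79.7% without a call. LMNB1 (lamin B1) fell to 26.4% (95% interval 20.3% to 34.3%), from 3764 to 994 counts, and LMNA stood at 1.23-fold with an adjusted p of 0.21. LMNB1 also stood at 41.4% with siMYBL1 alone (adjusted p 3.4e-12) and 94.6% with siMYBL2 alone, and its 3′ UTR holds GAACTTA. The histone variants H2AX and H2AZ2 fell to 47.4% and 53.7%, and HMGN2 to 54.0%. Of 12 tubulins 4 were lower: TUBB4B fell to 46.7% (95% interval 38.2% to 57.2%), TUBA1B to 55.2%, TUBA1C to 55.2% and TUBB to 63.9%. The others were not called, and TUBA1A stood at 1.27-fold and TUBB3 at 76.7%. Tubulin genes are similar to each other in sequence, so reads may be split between them.

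Of the lists used, genes of cell cycle arrest and the damage response had the largest share of members called higher. Of 34 listed members 24 were called higher and 0 lower, and the median was 1.76-fold. The share called higher was 70.6%, beside the 2.82% of all genes. The ferredoxin reductase FDXR rose 2.09-fold (95% interval 1.68 to 2.60), and the ubiquitin ligase MDM2 rose 2.01-fold (95% interval 1.62 to 2.48), from 2743 to 5503 counts. BTG2 rose 3.86-fold (95% interval 2.84 to 5.27), from 955 to 3692 counts, and TP53I3 rose 3.25-fold (95% interval 2.36 to 4.48). The secreted factor GDF15 rose 2.03-fold and the stress regulator SESN2 rose 2.0-fold. MIR34AHG, the host transcript of miR-34a, rose 2.96-fold (95% interval 2.02 to 4.33). It was the 1 long noncoding RNA of 26 in its list to be called (3.85%), near the share of all genes called higher. The members CCNG1 at 98.9%, TNFRSF10B at 1.08-fold and KITLG at 86.8% were not called, with adjusted p of 0.98, 0.8 and 0.62.

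The BCL2 family had 5 of 15 members higher (33.3%) and 0 lower, beside 2.82% and 4.12% of all genes. They were on both sides of the apoptosis decision: the death-promoting BBC3 (PUMA) at 2.14-fold, BAX at 1.53-fold, PMAIP1 (NOXA) at 1.46-fold and BIK at 1.8-fold, and the survival factor BCL2L1 at 1.44-fold. MCL1 stood at 97.4% and BCL2L2 at 1.0-fold, with no call. BBC3 and BAX belong to the arrest and damage response list as well.

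The epithelial, matrix and secreted lists each held members that rose, but most of their members were not called. Of all genes 2.82% were called higher and 4.12% lower. In the keratin and epithelial differentiation list 10 of 27 were higher (37.0%), among them CEACAM1 at 3.57-fold (95% interval 1.81 to 7.03), KRT15 at 2.31-fold, the protease KLK10 at 2.07-fold, S100A14 at 1.58-fold and SFN (14-3-3 sigma, also in the arrest and damage response list) at 1.54-fold. The abundant keratins KRT8 and KRT18 were not called. In the matrix, laminin and integrin list 7 of 25 were higher (28.0%) and 1 lower (4.0%), the lower share being near that of all genes. LAMA3 rose 2.46-fold and LAMB3 rose 2.36-fold, 2 chains of laminin-332, and the integrins ITGB4 and ITGA2 rose 1.88-fold and 1.74-fold. ITGB1 went the other way, to 67.2%, from 11401 to 7661 counts. In the secreted list 7 of 16 were higher (43.8%), among them F3 (tissue factor) at 1.91-fold (95% interval 1.48 to 2.48), IL18 at 1.81-fold and SERPINE2 at 1.41-fold. TIMP1 at 1.13-fold and TIMP2 at 1.02-fold were not called.

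Outside the lists SERPINB5 (maspin), an epithelial serpin, rose 2.47-fold (95% interval 1.95 to 3.12), from 811 to 2002 counts. AQP3, a water and glycerol channel, rose 2.63-fold, the lipid transporter ABCA12 3.15-fold, SUSD2 3.11-fold and MACC1 2.72-fold. The scaffold AKAP12 rose 1.70-fold from the high mean of 26829 counts, and ALDH1A3 rose 1.51-fold. CPA4 rose from 212 to 1157 counts. Among the 30 listed members of the actin, SRF and YAP list, ACTA2 (from 59.0 to 295 counts) and AXL (1.59-fold) rose. TAGLN2 (53%) and TPM3 (62.3%) fell, while ACTB and ACTG1 stood at 92.5% and 90.6%. The share called was 6.67% in each direction, beside 2.82% of all genes called higher and 4.12% called lower.

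Growth factor and stress lists had fewer calls, and are set beside the 2.82% of all genes called higher and 4.12% called lower. In the NF-kB, interferon, TGF-beta and lysosome lists the higher share was above 2.82% but rested on 1 or 2 members each. The medians of these 4 lists were 99.8%, 108%, 96.8% and 106% of siCtrl, so they did not move as a whole. The EGF ligand AREG rose 1.92-fold (95% interval 1.51 to 2.44), and the ERK phosphatases DUSP4 and DUSP5 rose 1.69-fold and 1.43-fold, 3 of 21 in that list. In the AP-1 list 4 of 22 rose, FOSL2 at 1.99-fold, ATF3 at 1.94-fold, MAFF at 1.67-fold and MYC at 1.48-fold. EGR1 at 88.7% (95% interval 26.3% to 299%) and IER2 at 98.8% (95% interval 53.1% to 184%) had intervals too wide to place them. In the NF-kB list BIRC3 alone rose, 2.35-fold, of 13, and in the interferon list DDX58 (RIG-I) at 2.08-fold and TAP1 at 1.44-fold, of 28. In the TGF-beta list LTBP2 and SMAD3 rose 3.06-fold and 1.62-fold, of 23. The lysosome list held 2 higher members, WIPI1 and MAP1LC3B, and 1 lower of 29, the lower share being near that of all genes. The lower one was LAMP1, at 45.7% (95% interval 37.7% to 55.5%), from 4215 to 1928 counts; it stood at 47.6% with siMYBL2 alone and 101% with siMYBL1 alone, and its 3′ UTR holds CCTTACA.

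Metabolic genes were mostly not called, and are set beside the 4.12% of all genes called lower and 2.82% called higher. The lower and higher shares were 19.4% and 6.45% in the ATF4 list and 9.68% and 0% in the cholesterol list. In the glycolysis list they were 6.45% and 3.23%, near those of all genes. Of the ATF4 and unfolded protein list 6 of 31 fell and 2 rose. Those that fell included the amino acid enzymes ASNS at 51.9% (95% interval 41.0% to 65.7%), PHGDH at 53.8% and PSAT1 at 70.1%, the cystine transporter SLC7A11 at 58.3% and ATF5 at 52.4%, while the chaperones HSP90B1, CALR and CANX were not called. Of 31 cholesterol and fatty acid genes 3 fell, among them SQLE at 61.8% and INSIG1 at 63.1%. SCD, the fatty acid desaturase, stood at 51.5% (95% interval 25.4% to 104%) and was not called. LDHA at 74.4% and TPI1 at 76.1% fell and the glucose transporter SLC2A1 rose 1.60-fold, 3 of 31 glycolysis and hypoxia genes. ODC1, the first enzyme of polyamine synthesis, fell to 50.8% (95% interval 38.8% to 66.4%), and MXD3 fell to 30.7% while MXD4 rose 1.67-fold. Among 15 mitochondrially encoded genes MT-ND5 (1.54-fold), MT-ND4 (1.49-fold), MT-CYB (1.42-fold) and MT-CO1 (1.39-fold) rose. Among the most abundant transcripts called lower were HSP90AA1 at 70.4%, PTMA at 69.2% and HNRNPA2B1 at 70.4%.

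The double knockdown was set beside each single knockdown. Of the 153 mitotic-list genes 0 were called lower with siMYBL1 alone and 33 with siMYBL2 alone, against the 109 of the double knockdown. Calls over all genes were also fewer: 0.179% of 12885 genes were called lower with siMYBL1 alone and 0.87% of 12873 with siMYBL2 alone, beside the 4.12% of the double knockdown. The medians were 89.7%, 78.8% and 48.2% of siCtrl. All 3 comparisons use the same siCtrl libraries, so their calls are not independent. The differences were tested directly, with the difference of both log2 fold changes divided by a standard error in which their variances are summed; that error is too large here, since the controls are shared. By this test the double knockdown was below siMYBL1 alone in 144 genes (1.12% of 12885) and above it in 21 (0.163%), and it was below siMYBL2 alone in 70 genes (0.544% of 12873) and above it in 13 (0.101%). The mitotic lists gave 69 genes below siMYBL1 alone, 49 below siMYBL2 alone and 0 above either.

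CDC20 and CKAP2L were not called with either siRNA alone. CKAP2L stood at 71.2% with siMYBL1, 68.4% with siMYBL2 and 15.3% with both, and the double differed from siMYBL1 with an adjusted p of 1.3e-11 and from siMYBL2 with 1.4e-09. CDC20 stood at 83.0%, 79.9% and 33.8%, with adjusted p of 4.8e-05 and 0.0014. PLK1 stood at 88.3%, 70.1% and 21.9%, and KIFC1 at 85.9%, 79.8% and 23.8%. NCAPD2 stood at 93.0%, 92.4% and 38.0%. PIF1, CENPE and MXD3 had already fallen with siMYBL2 alone, to 31.5%, 41.5% and 42.2%. CENPE fell further in the double knockdown (adjusted p 0.012), and for PIF1 and MXD3 the test against siMYBL2 gave 0.15 and 1.

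CDKN1A was at 1.17-fold with siMYBL1, 1.48-fold with siMYBL2 and 3.24-fold with both, above each single knockdown with adjusted p of 2.7e-09 and 0.00031. MDM2 was at 91.1%, 97.3% and 2.01-fold, again above both (1.8e-05 and 0.00092). Of the 34 arrest and damage response genes 12 were above siMYBL1 alone and 5 above siMYBL2 alone, while 0 and 2 were called higher in those single knockdowns, where 0.132% and 0.287% of all genes were. CPA4 was at 4.01-fold with siMYBL1, a value with an adjusted p of 0.71, and 77.2% with siMYBL2. The double exceeded siMYBL2 with an adjusted p of 2.1e-08 for CPA4, 0.017 for ATF3 and 0.019 for MACC1. MYC was called with siMYBL1 alone (1.53-fold, adjusted p 0.0077) and stood at 95.3% with siMYBL2. TAGLN2 moved in opposite directions, to 60.3% with siMYBL1 and 1.25-fold with siMYBL2, the latter with an adjusted p of 0.52, and the double was below siMYBL2 with an adjusted p of 6e-06. CDKN2C was lower in the double knockdown than with siMYBL2 alone (0.0055).

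**Figure D3:**
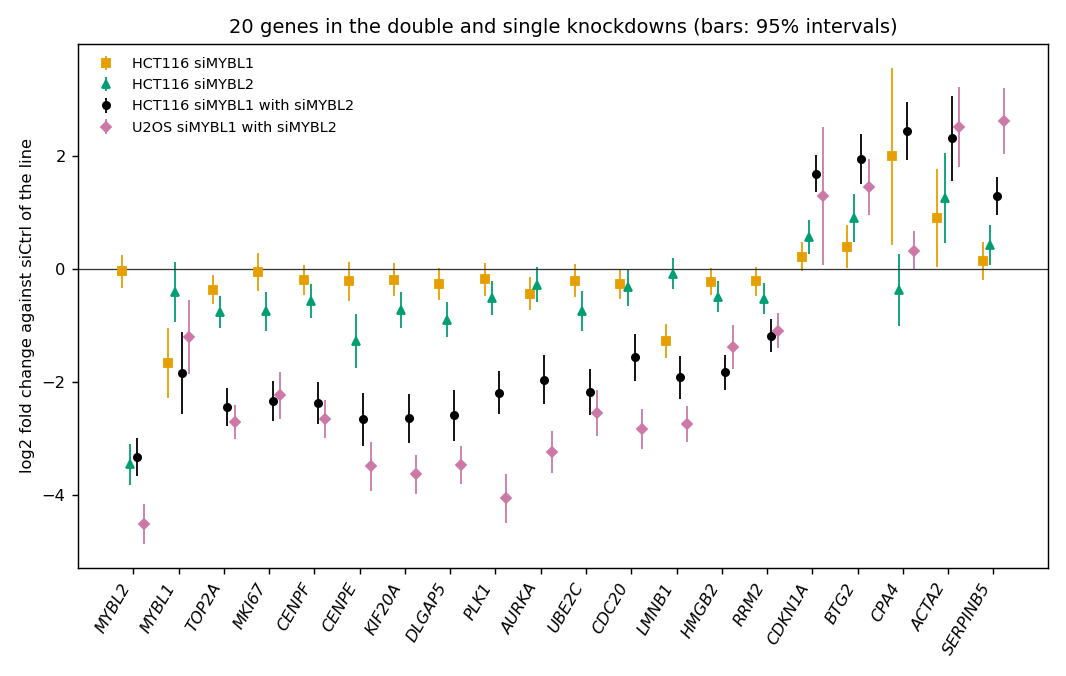
Log2 fold change against siCtrl of the same line (vertical axis) for 20 genes (horizontal axis) in HCT116 with siMYBL1, siMYBL2 or both and in U2OS with both; points are the authors' fold changes and bars are 95% intervals. For the mitotic genes from TOP2A to CDC20 the HCT116 double knockdown (black circles) lies below both single knockdowns, and PLK1, AURKA and CDC20 lie lower still in U2OS.

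In U2OS the double knockdown left 4.34% of MYBL2, less than the 9.92% in HCT116 (adjusted p 0.00079 for the difference), and 43.5% of MYBL1 (adjusted p 0.83). The lines share no libraries, so the errors add. Over 12388 genes listed in both lines, the fold change was above that of U2OS in 93 genes (0.751%) and below it in 64 (0.517%). Of these genes 7.06% were called lower in U2OS against its own siCtrl and 6.68% were called higher, both larger shares than the 4.12% and 2.82% of HCT116. Of the 153 mitotic-list genes 101 were called lower in U2OS, with a median of 44.2%, and 8 lay above U2OS by the test and 0 below. PLK1 stood at 21.9% in HCT116 and 5.97% in U2OS (adjusted p 6.6e-07). AURKA stood at 25.7% and 10.6% (0.0029), CDC20 at 33.8% and 14% (0.0023), TPX2 at 32.8% and 16.5% (0.0078), and KIF20A at 15.9% and 8.01% (0.044). For MKI67 the values were 19.7% and 21.2%, for CENPF 19.3% and 15.8%, and for RACGAP1 31.9% and 25.5%, with adjusted p of 0.99, 0.88 and 0.82 for the differences.

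Counts of lower S phase genes differed between the lines, but the test of the difference seldom passed. Of 41 replication genes 13 were called lower in HCT116 and 2 in U2OS, with medians of 69.5% and 93.3%, beside 4.12% and 7.06% of all genes. By the test 1 member differed between the lines. FEN1, which stood at 77.8% in HCT116 and 1.28-fold in U2OS, had an adjusted p of 0.09 for the difference. Arrest and damage response genes had 24 of 34 called higher in HCT116 and 19 of 33 in U2OS, with medians of 1.76-fold in both, beside 2.82% and 6.68% of all genes. TP53I3 rose more in HCT116, 3.25-fold against 1.36-fold (adjusted p 0.006). KITLG stood at 86.8% in HCT116 and 2.69-fold in U2OS (0.00023). CDKN1A was 3.24-fold and 2.46-fold (0.97). BMP4 stood at 1.20-fold in HCT116 and 23.7% in U2OS (1.8e-16).

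CPA4 rose 5.47-fold in HCT116 and stood at 1.26-fold in U2OS (adjusted p 3.3e-08). SERPINB5 rose in both lines, 2.47-fold and 6.18-fold, and less in HCT116 (0.017). CD44 and BCL2L1 were also further up in U2OS, at 2.37-fold and 2.57-fold against 1.18-fold and 1.44-fold (0.011 and 0.019). KRT18, at 1.12-fold in HCT116, was at 60.6% in U2OS (0.021). In the keratin and epithelial list 10 of 27 were called higher in HCT116 and 3 of 22 in U2OS, beside the same 2.82% and 6.68% of all genes, and 2 members lay above U2OS by the test.

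**Figure D4:**
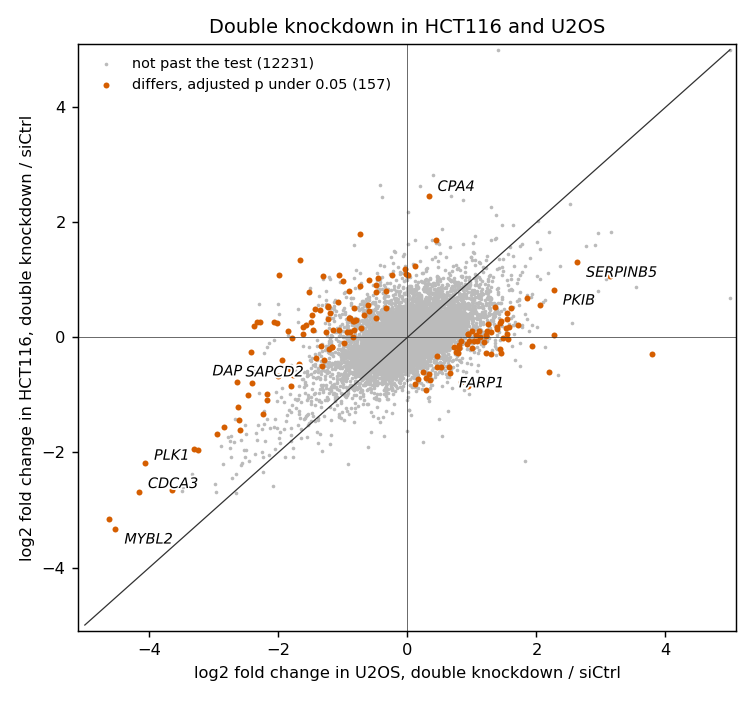
Log2 fold change of the double knockdown over siCtrl in HCT116 (vertical axis) against that in U2OS (horizontal axis), with 1 point for each of 12388 genes listed in both lines, orange where the difference passed the test and a diagonal where both are equal; values beyond 5 are drawn at 5. MYBL2, CDCA3 and PLK1 lie above the diagonal at the lower left, fallen in both lines but further in U2OS, and CPA4 is high in HCT116 and near 0 in U2OS.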

How the data were processed

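RNA of HCT116 cells was sequenced in 2 libraries per group, and 16 libraries make up the series. The submitters' processing notes name cutadapt 4.4, Salmon 1.10.1, DESeq2 1.40 and the build hg38, without order or settings. Annotation, gene summing and filters: not given in the sources used here. All 6 deposited tables hold the authors' comparisons only. The authors' base mean, a signal, averages normalized counts of 4 libraries, per the file headers. The deposited fold change and its standard error are log2 values, the authors' Wald statistic is a score, and the deposited p-value and adjusted p-value come from that statistic, per the file headers. Depth per library is unknown, base means summed to 19826741 in the double knockdown table, and the standard error sets the precision.

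The count test planned for values per library was replaced by the authors' Wald test, with Benjamini-Hochberg adjustment recomputed over all genes and a threshold of 0.05. Differences between knockdowns or lines were tested with a 2-sided normal p and the same adjustment. The code was tested on simulated data (Python 3.11.15, pandas 2.3.3, numpy 2.4.6, scipy 1.17.1, matplotlib 3.10.9). Named genes were MYB, MYBL1 and MYBL2, the 12 highest and 12 lowest called genes whose base mean reached 100, up to 5 called per direction and 3 not called of each of 35 lists, the 5 most abundant called per direction, and the 8 most extreme per direction of each difference. CCNB1, HMMR and DEPDC1 were named after their values were seen. The comparison and the gene lists were chosen with earlier results of these data known. Alternatives changed the base mean minimum, centring, threshold, size of change tested and promoter window. Promoters came from RefSeq (GRCh38.p14) and 3′ UTRs from GENCODE 29 (the longest per gene). Results for some genes are not reported here.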

Additional observations from a re-analysis of the deposited data

Results flagged for a closer look

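The test of the difference between the lines passed in 157 genes, called in HCT116 or not. Described here are 16 that were called in the HCT116 double knockdown, taken from the most extreme differences in each direction. They are not all the called genes that passed, and AURKA and others named above passed too. Values are log2 fold changes of HCT116 minus those of U2OS. Of the 16, those that fell in HCT116 but fell further in U2OS were PLK1 (1.88), SAPCD2 (1.88), DAP (1.62), CDCA3 (1.48), UBALD2 (1.47) and MYBL2 itself (1.19). Of the 16 genes, DAP and ABHD2 hold the word CCTTACA in their 3′ UTRs, and FARP1 and PGPEP1 hold GAACTTA. The part of these words in the differences between the lines was not tested.

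Among these selected genes, those that rose in HCT116 and were above U2OS were CPA4 (2.12) and ENC1 (1.28). ENC1 rose 1.73-fold in HCT116 and stood at 71.2% in U2OS. Selected genes that rose in HCT116 but more in U2OS were PKIB (-1.45), SERPINB5 (-1.32), PGPEP1 (-1.16), TSPAN5 (-1.10) and BCL2L1 (-0.84).

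FARP1 (-1.28), ABHD2 (-1.09) and WDR76 (-0.996) fell in HCT116, to 65.2%, 59.7% and 61.2%, and stood at 1.58-fold, 1.27-fold and 1.22-fold in U2OS. The adjusted p of these 16 differences ran from 2.1e-08 for SAPCD2 to 0.033 for WDR76.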

How the results depend on the processing

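No alternative could reverse the direction of a named gene that was called. Only centring changes the fold changes against siCtrl, and it removes a median log2 fold change of -0.027. Of the 160 named genes that were called, 54 stayed past the threshold in all alternatives. With only genes of base mean at least 100, or with fold changes centred on their median, counts of calls stayed within 1.5 times for each of the 4 comparisons; centring moved the higher share of calls from 40.7% to 47.5%. With an adjusted p under 0.01, calls against siCtrl went from 895 to 506 (188 higher, 318 lower), against U2OS from 157 to 60 (38 above, 22 below), and against siMYBL2 alone from 83 to 53, with 5 above, while those above siMYBL1 alone went from 21 to 9. Tested against a log2 change of 0.5, calls against siCtrl were 131 (27 higher, 104 lower), against U2OS 10 (8 above, 2 below), against siMYBL2 alone 16 (1 above, 15 below) and against siMYBL1 alone 43 (2 above, 41 below), from 165. Under this test 106 named genes lost their call, under the threshold of 0.01 it was 33, and under centring 3, which were CDKN2D, E2F3 and TPI1. No paired analysis was possible because the tables hold no values per library, and for the same reason no replicate could be left out.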

Other observations

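A few abundant genes were measured with little precision. Of 4410 genes whose base mean reached 1000, 26 had a standard error at least 3 times that of genes of like base mean, and 3 of these were called, all mitotic: CCNB1, HMMR and DEPDC1. HMMR, a spindle protein, stood at 21.7% (95% interval 10.3% to 45.6%) and DEPDC1 at 23.4% (95% interval 10.4% to 52.3%). For these 3 the standard error was close to that of like genes in both single knockdown tables, which use the same siCtrl libraries. Of the 26, 20 were also past this limit with siMYBL1 alone, 16 with siMYBL2 alone and 9 in the U2OS double knockdown. They include the growth-induced factors FOS, EGR1, JUNB and IER2, the nuclear RNA MALAT1 and the ribosomal MT-RNR1, none of them called. This description was added after the data were seen.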
